A study of Mus musculus with 10 samples.

Results

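Short beta CDR3s, of 11 or fewer residues, made up 9737 of the 193012 T cell receptor beta (TRB) clonotypes in 10 libraries of splenic regulatory T (Treg) cells, or 5.04%, and 13441 of 266347 TRB counts. The deposited tables held 387286 entries of both receptor chains. An entry was taken as beta when its CDR3 ended in the residues of a TRBJ gene, and as short when its CDR3 had 11 or fewer residues; 179825 entries had 12 to 16 residues and 3450 had 17 or more. A clonotype is a V gene, a J gene and a CDR3 nucleotide sequence, and each distinct clonotype counts once unless counts are named. The study sequenced receptors of sorted, untreated Treg cells of CNS4KO mice, deficient for CNS4, an enhancer of the Treg factor gene Foxp3, and of CNS4Flox mice, which carry the floxed enhancer and are labelled WT. There were 5 libraries per strain, numbered here in accession order as names only, and age and any Cre driver are not given in the sources used here. Nothing in the labels ties a replicate to a mouse of its own, so p-values measure the spread between libraries, which may be technical. No marker gene of Treg cells was measured.

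The CDR3 of a beta chain spans the joint of a V, a D and a J segment. Recombination trims bases from the segment ends, and terminal transferase adds untemplated bases between them, so that the middle of the loop, which usually faces the peptide, differs most between receptors. A short CDR3 therefore keeps less of its segments, has fewer added bases, or both. The names of V and J segments, the D segments TRBD1 and TRBD2, and the ends of the matched parts were those deposited with each entry.

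The J segments that most and least often ended short CDR3s differ in how many bases they can bring to the loop. The most common deposited J part at its greatest common length is shown 5′ to 3′ for both ends of that range, with the bases of the 4 final residues in capitals. TRBJ2-7 and TRBJ1-1 were the J genes with the highest short share, and TRBJ2-2 and TRBJ1-3 those with the lowest among genes with a matched name.
TRBJ2-7: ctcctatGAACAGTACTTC
TRBJ1-1: caaacacaGAAGTCTTCTTT
TRBJ2-2: caaacaccgggCAGCTCTACTTT
TRBJ1-3: ttctggaaatACGCTCTATTTT
The greatest common J match was 19 bases for TRBJ2-7 and 20 for TRBJ1-1, against 23 for TRBJ2-2 and 22 for TRBJ1-3. The V parts of the genes with the highest short share are shown next, followed by those of the genes with the lowest, all in lower case.
TRBV30: tgtagttctagaga
TRBV20: tgtggtgctaggga
TRBV31: tgtgcctggagtct
TRBV5: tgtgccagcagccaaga
TRBV2: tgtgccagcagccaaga
The V part had 14 bases for TRBV30, TRBV20 and TRBV31, and 17 for TRBV5 and TRBV2, whose V parts were the same. This length did not order all V genes. TRBV26 also had 17 bases, with 6.67% of its clonotypes short, while TRBV12-2 had 15 bases and 4.11%.

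The most counted sequences of the 5 short clonotypes found in most libraries had 0 to 4 bases outside the V and J matches. Short clonotypes whose J name matched the CDR3 end had a median of 4 bases between the matches. The 5 amino acid clonotypes (V gene, J gene and CDR3 residues) present in most libraries are shown as their most counted nucleotide sequence, with the bases outside both matches in capitals.
TRBV31 with TRBJ2-7: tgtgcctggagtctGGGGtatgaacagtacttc
TRBV31 with TRBJ2-5: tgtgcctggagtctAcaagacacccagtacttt
TRBV12-1 with TRBJ2-7: tgtgccagctctctctacgaacagtacttc
TRBV1 with TRBJ2-7: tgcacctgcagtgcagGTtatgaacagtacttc
TRBV26 with TRBJ2-5: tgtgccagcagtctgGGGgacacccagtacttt
The TRBV31 and TRBJ2-7 clonotype was in 9 libraries, 5 CNS4KO and 4 CNS4Flox, with counts of 1, 3, 1, 4 and 4 in the CNS4KO libraries, replicates 1 to 5 and 2, 1, 4, 0 and 3 in the CNS4Flox libraries, replicates 1 to 5. It was encoded by 8 nucleotide sequences, of which the printed one was in 7 libraries. The TRBV31 and TRBJ2-5 clonotype was in 8 libraries, and its printed sequence in 2. The TRBV12-1, TRBV1 and TRBV26 clonotypes were in 7 each, and their printed sequences in 1, 1 and 4. The printed TRBV12-1 sequence has no base outside the matches, which overlap by 1 base.

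Numbers of short clonotypes fell away quickly with length. There were 8072 clonotypes of 11 residues, 1405 of 10, 187 of 9, 50 of 8, 18 of 7 and 5 of 6. Just outside the limit, 23285 clonotypes had 12 residues. Clonotypes of 11 residues made up 4.13% ± 0.214 of those in CNS4KO libraries and 4.22% ± 0.164 in CNS4Flox libraries (SD over 5 libraries each), and those of 10 residues 0.766% ± 0.0626 and 0.695% ± 0.0604 in the same order of strains. The shortest clonotypes found in at least 2 libraries had the same sequence, listed once under TRBV29 and once under TRBV17, both with TRBJ2-1.
TRBV29 or TRBV17 with TRBJ2-1: tgtgctgagcagttcttc
Its deposited J match starts before the first of the 18 CDR3 bases, so that the V match, of 14 bases under TRBV29 and 13 under TRBV17, lies wholly within it. It was in CNS4KO replicates 1 and 3 under TRBV17, and in CNS4KO replicate 5 and CNS4Flox replicate 1 under TRBV29.

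CNS4KO replicate 5 and CNS4Flox replicate 3 had 55 short nucleotide clonotypes in common, where the other 44 pairs of libraries had 7 to 27. They also shared 125 short amino acid clonotypes, against 34 to 88 in the other pairs. Shares and counts of clonotypes found in several libraries are therefore given with and without both libraries. TRB counts were 19199 to 34833 in CNS4KO and 20854 to 32979 in CNS4Flox, with 13786 to 23065 and 17340 to 24496 distinct TRB clonotypes in the same order of strains. Depth limits the precision of single libraries, which held 727 to 1206 short clonotypes in CNS4KO and 832 to 1244 in CNS4Flox.

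Short CDR3s were shorter mainly between the V and J matches and at the J end. Among clonotypes whose J name matched their CDR3 end, short ones held on average 12.5 V, 2.45 D, 1.75 inserted and 15.8 J bases, against 13.6, 6.21, 3.403 and 18.2 in those of 12 to 16 residues (means of 10 libraries). Of the 9.035 bases by which the classes differed, 41.6% lay in the D match, 26.9% in the J match, 18.3% in inserted bases and 12.2% in the V match. These parts add up to the length, so the differences are a description and were not tested. The D match was taken to include both of its deposited ends. So read, no short clonotype with a named D was free of inserted bases. The D parts may therefore be too short and the inserted parts too long, which was not tested. The split between D and inserted bases is uncertain. Relative to the greatest common match of each gene, short CDR3s had lost 3.35 ± 0.0741 V bases and 4.60 ± 0.0744 J bases (SD, n = 10 libraries), against 2.53 ± 0.0232 and 2.66 ± 0.0235 in CDR3s of 12 to 16 residues. The lowest library mean of J loss in short CDR3s, 4.50, lay above the highest in the longer class, 2.69.

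**Figure D1:**
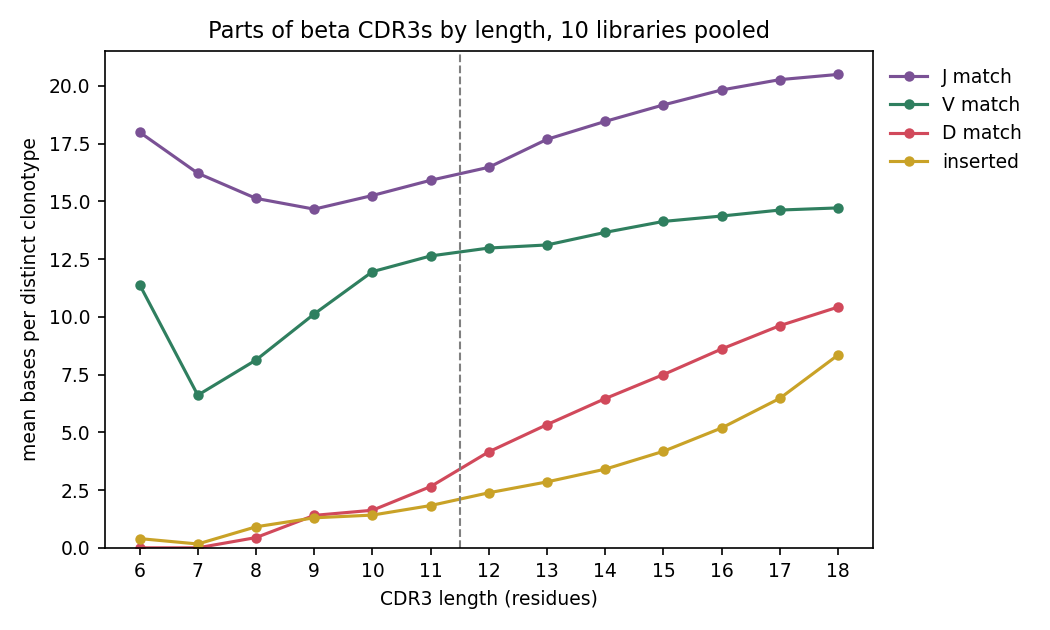
Mean number of bases in the J, V and D matches and of inserted bases (y axis) by CDR3 length in residues (x axis), over all distinct TRB clonotypes of 10 libraries whose J name matched the CDR3 end; the dashed line is the limit of 11 residues. The D match had 2.65 bases at 11 residues and 8.61 at 16, and the J match 15.9 at 11 and 19.8 at 16, while at 6 and 7 residues, with 5 and 18 clonotypes, the J part is longer again. The split between D and inserted bases is uncertain.

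The D match was often missing. No D segment was named in 32.8% ± 1.73 of short clonotypes, against 2.26% ± 0.149 of those of 12 to 16 residues (SD, n = 10 libraries), and the share grew as the loop became shorter, with 28.6% at 11 residues, 49.9% at 10, 55.6% at 9 and 82.2% at 8. Where the V and J matches had 2 or fewer bases between them, 100% of short clonotypes had no D; with 3 bases between them 19.6% had none, and with 4 bases 2.16%. The V and J matches touched or overlapped in 9.52% of short clonotypes, 912 of 9579, and in 0.248% of the longer class. Read with both deposited ends included, a D match was at least 2 bases for TRBD1 and 3 for TRBD2. So read, 29.6% of D matches in short clonotypes were 2 bases long, against 5.11% in the longer class. Yet no D was named in any short clonotype with only 2 bases between the V and J matches. These match lengths may therefore be too short, which was not tested. A name given on so few bases is weak evidence of which D segment was used.

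TRBD1 was named in most short clonotypes with a D match. TRBD1 held 85.3% ± 1.31 of D names in short clonotypes and 63.2% ± 0.478 in those of 12 to 16 residues (SD, n = 10 libraries). TRBD2 lies between the TRBJ1 and the TRBJ2 segments in the locus, and TRBJ2 segments can be joined to either D. Among clonotypes with a TRBJ2 gene, TRBD2 was 17.5% of D names in short CDR3s (13.8% to 19.8% over libraries) and 48.1% in the longer class (47.4% to 49.3%). Among clonotypes with a TRBJ1 gene, where a TRBD2 name goes against the order of the segments, it was 7.85% in short CDR3s and 9.18% in the longer class. The unequal minimum match of the D segments moves in the same direction as the short against longer difference, and its part in it was not tested.

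J gene use differed between the length classes. TRBJ2-7 ended 33.0% ± 2.39 of short clonotypes and 19.2% ± 0.824 of those of 12 to 16 residues, and TRBJ1-1 14.4% ± 1.64 and 9.17% ± 0.449 (SD, n = 10 libraries). TRBJ2-7 use was not particular to the limit of 11 residues: pooled over libraries it was 42.6% at 10 residues, 31.5% at 11, 33.1% at 12 and 21.7% at 13. TRBJ2-7 and TRBJ1-1 were higher in short CDR3s in 10 of 10 libraries, and for both the library ranges of the classes did not overlap. TRBJ2-2 ended 1.92% ± 0.391 of short and 5.72% ± 0.378 of longer clonotypes, TRBJ1-6 1.51% ± 0.463 and 3.62% ± 0.192, and TRBJ1-3 2.79% ± 0.359 and 5.70% ± 0.284 (SD, n = 10 libraries), each lower in short CDR3s in 10 of 10 libraries. Of the 12 J genes 2 were higher, 7 lower and 3 neither in short CDR3s past an adjusted p of 0.05 (two-sided exact sign-flip permutation test over 10 libraries, Benjamini-Hochberg over 62 values). Of all 62 values so tested 75.8% passed, 38.7% higher and 37.1% lower, so a pass by itself is common in this comparison. The smallest p that the sign patterns of 10 libraries can give is 0.00195, which these 5 J genes reached, with an adjusted p of 0.00378.

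The other J genes lay between these extremes. TRBJ2-1 (7.19% of short and 10.5% of longer clonotypes), TRBJ2-3 (5.67% and 8.07%) and TRBJ2-4 (8.49% and 11.8%) were lower in short CDR3s in 10 of 10 libraries, and TRBJ1-4 (5.11% and 6.02%) in 8 of 10, with an adjusted exact p of 0.0124. TRBJ2-5 held 12.6% of short and 12.8% of longer clonotypes, TRBJ1-2 4.59% and 4.53%, and TRBJ1-5 2.74% and 2.83%, with adjusted exact sign-flip p-values of 0.716, 0.815 and 0.583. The TRBJ2 genes together held 68.8% ± 2.54 of short and 68.1% ± 0.934 of longer clonotypes (SD, n = 10; adjusted exact p = 0.380), with a difference of 0.693 points and an SD of that difference of 2.03.

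**Figure D2:**
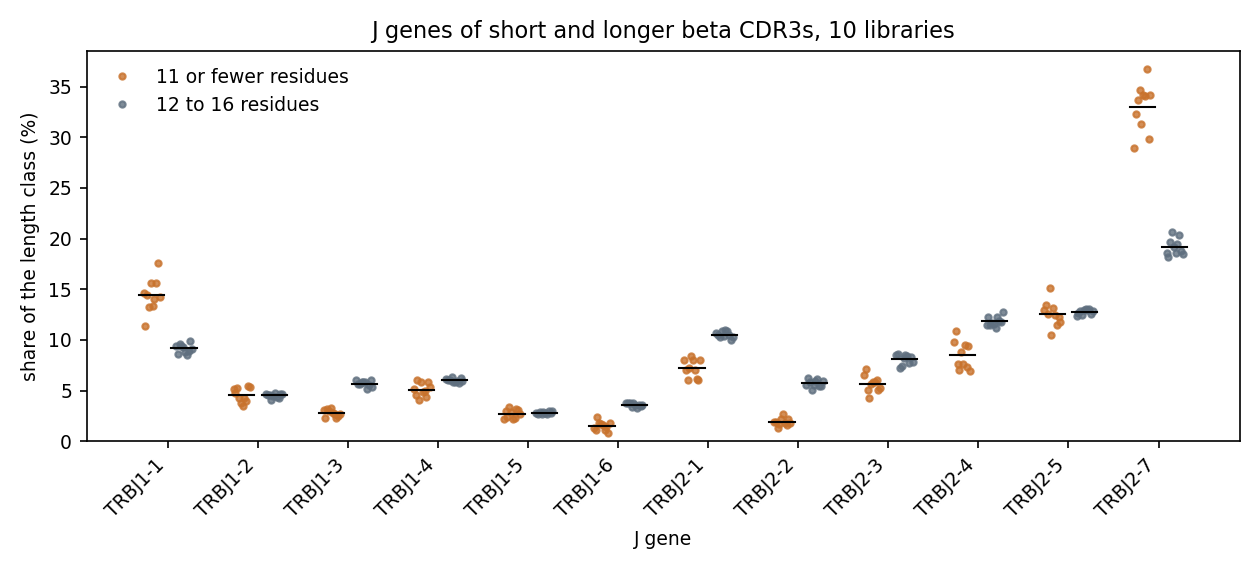
Share of distinct clonotypes (y axis, percent) that each J gene (x axis) held among beta CDR3s of 11 or fewer residues, left of each pair, and of 12 to 16 residues, right; points are the 10 libraries and bars their means. The TRBJ2-7 points lie at 28.9% to 36.7% in short CDR3s and at 18.2% to 20.6% in the longer class.

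Read the other way, short CDR3s were 8.50% of the 38057 TRBJ2-7 clonotypes and 7.87% of the 17908 TRBJ1-1 clonotypes, but 1.72% of the 10893 TRBJ2-2, 2.15% of the 6833 TRBJ1-6 and 2.56% of the 10639 TRBJ1-3 clonotypes. Over the 11 J genes with matched names, the short share and the greatest common J match had a Pearson correlation of -0.792 and a Spearman correlation of -0.744. Over the 22 V genes the same correlations with the greatest common V match were -0.653 and -0.358. These are descriptions across genes that share libraries.

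Among V genes, TRBV31, TRBV20 and TRBV26 held the largest shares of short clonotypes, at 15.1% ± 3.15, 7.38% ± 1.72 and 6.97% ± 1.79 (SD, n = 10 libraries). In CDR3s of 12 to 16 residues they held 10.9% ± 1.43, 3.19% ± 0.642 and 5.23% ± 0.613. TRBV30 was rare, with 3.20% ± 0.889 of short and 0.975% ± 0.111 of longer clonotypes, and had the largest ratio, a mean log2 of 1.67, followed by TRBV20 with 1.204, TRBV31 with 0.46 and TRBV26 with 0.39. These were the V genes with a higher share of short clonotypes in 10 of 10 libraries (adjusted exact sign-flip p = 0.00378 each). Of the 22 V genes 6 were higher, 10 lower and 6 neither past the threshold, against the 75.8% of all values that passed.

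TRBV5 was the least used V gene relative to longer CDR3s. It held 1.45% ± 0.444 of short and 6.57% ± 0.583 of longer clonotypes, a mean log2 ratio of -2.24. TRBV2, whose CDR3 starts with the same bases, held 1.51% ± 0.400 and 3.20% ± 0.480, a ratio of -1.13. Among V genes lower in 10 of 10 libraries, TRBV13-3 (-0.47), TRBV1 (-0.40) and TRBV3 (-0.23) followed by mean log2 ratio. All 5 were lower in short CDR3s in 10 of 10 libraries, with an adjusted exact p of 0.00378 each. Short CDR3s were 15.3% of TRBV30 clonotypes (10.05% to 21.4% over libraries), 11.1% of TRBV20, 6.90% of TRBV31, 2.34% of TRBV2 and 1.13% of TRBV5 clonotypes. In RefSeq's GRCm38 annotation, the assembly of mm10, these V genes lie on chromosome 6, from TRBV1 at 40891296 to 40891885 to TRBV31 at 41557693 to 41558371; TRBV31 lies beyond the J segments, at 41533864 to 41543856, and rearranges by inversion. TRBV5 is at 41062359 to 41062803, TRBV20 at 41188273 to 41188977 and TRBV30 at 41281376 to 41281990.

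**Figure D3:**
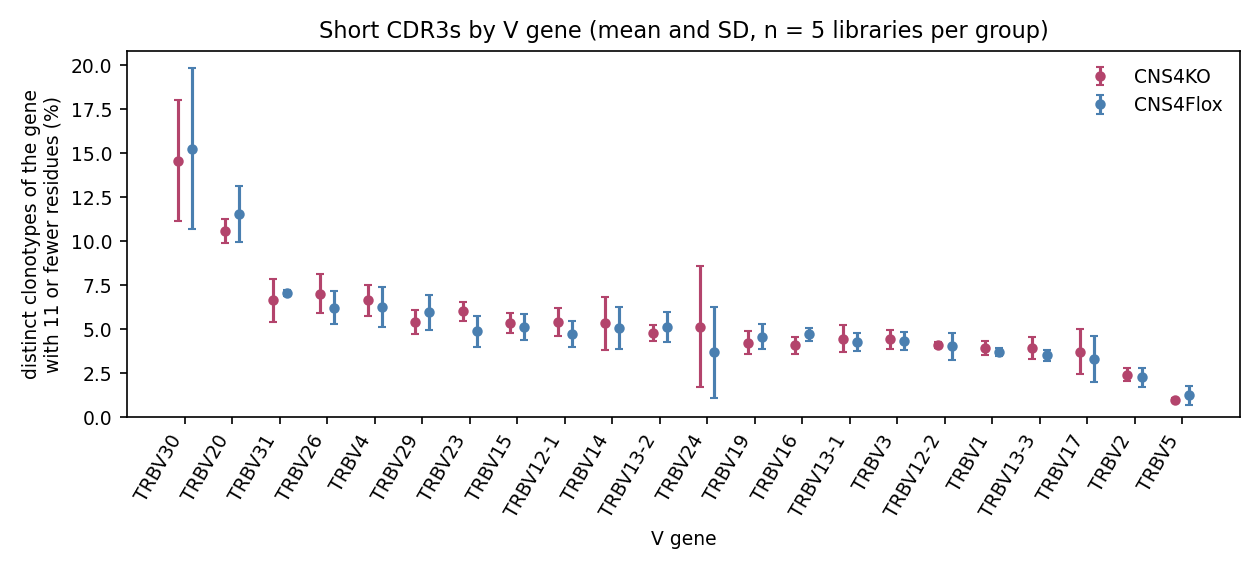
Percent of each V gene's distinct clonotypes with a CDR3 of 11 or fewer residues (y axis) by V gene (x axis), mean and SD of 5 libraries in CNS4KO, left of each pair, and CNS4Flox, right. TRBV30 and TRBV20 stand above the other genes in both strains, with means of 14.6% and 10.6% in CNS4KO and 15.3% and 11.6% in CNS4Flox.

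Residues outside the V and J matches, of which short CDR3s had 1.96 ± 0.0492 and the longer class 3.87 ± 0.0150 per clonotype (SD, n = 10 libraries), also differed in kind. Glycine, common in the reading frames of the D segments, was 22.7% ± 1.15 of them in short CDR3s and 30.6% ± 0.252 in longer ones, lower in 10 of 10 libraries. Tryptophan was 1.97% ± 0.3002 and 3.68% ± 0.0703, also lower in 10 of 10. Arginine was higher, at 14.6% ± 0.718 and 11.2% ± 0.122, as were serine, at 7.90% ± 0.408 and 5.72% ± 0.116, glutamic acid, at 4.26% ± 0.404 and 2.83% ± 0.0893, histidine, at 2.44% ± 0.341 and 1.37% ± 0.0693, and lysine, at 1.92% ± 0.409 and 0.993% ± 0.0476 (SD, n = 10 libraries). Each of these was higher in 10 of 10 libraries, and all 7 residues had an adjusted exact sign-flip p of 0.00378. Of the 20 residues 12 were higher, 5 lower and 3 neither past the threshold, against 75.8% of all values. A residue counted here can take 1 or 2 of its bases from V or J, which is more often the case where few bases lie between the matches.

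Hydrophobic residues as a group did not pass between the classes, at 17.03% ± 0.807 in short CDR3s and 16.8% ± 0.174 in longer ones (SD, n = 10 libraries; mean difference 0.183 points, SD of the difference 0.907; adjusted exact p = 0.599). A pair of hydrophobic residues at CDR3 positions 6 and 7, a feature linked in mice and humans to self-reactive T cells, was in 2.41% ± 0.507 of short and 1.23% ± 0.0807 of longer clonotypes (SD, n = 10), higher in 10 of 10 libraries with an adjusted exact p of 0.00378. The difference of 1.18 points was 0.848 with a limit of 10 residues, where it did not pass (adjusted exact p = 0.0704), and 0.275 with a limit of 12 (adjusted exact p = 0.0274). Positions 6 and 7 lie closer to the J end in a short CDR3, and the part of germline J residues in this share was not tested. The share was 2.42% ± 0.565 in CNS4KO and 2.40% ± 0.511 in CNS4Flox short CDR3s (SD over 5 libraries each; exact permutation p = 0.960).

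Short amino acid clonotypes were shared between libraries more often than longer ones. Of a library's short amino acid clonotypes 30.4% ± 2.08 were found in at least 1 other library, against 22.3% ± 1.14 of those of 12 to 16 residues (SD, n = 10), higher in 10 of 10 libraries (adjusted exact sign-flip p = 0.00378). For nucleotide clonotypes the shares were 12.3% ± 1.44 and 6.66% ± 1.02, with the same p. Pooled over libraries, CDR3s just outside the limit had a share close to that of 11 residues: 14.5% of amino acid clonotypes of 12 residues were in at least 2 libraries, against 15.04% of those of 11, 13.4% of 10 and 5.75% of 9 residues. With a limit of 10 residues, which puts CDR3s of 11 residues in the longer class, the difference for amino acid clonotypes was 3.14 points (adjusted exact p = 0.0117). Without CNS4KO replicate 5 and CNS4Flox replicate 3 the difference for amino acid clonotypes was 6.91 points, against 8.13 with them, and for nucleotide clonotypes 4.23 points, against 5.68 with them; both were positive in all 8 remaining libraries (adjusted exact p = 0.0147 each). More than 1 nucleotide sequence encoded 2.81% ± 0.705 of short and 1.99% ± 0.307 of longer amino acid clonotypes within a library (SD, n = 10; adjusted exact p = 0.00378).

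**Figure D4:**
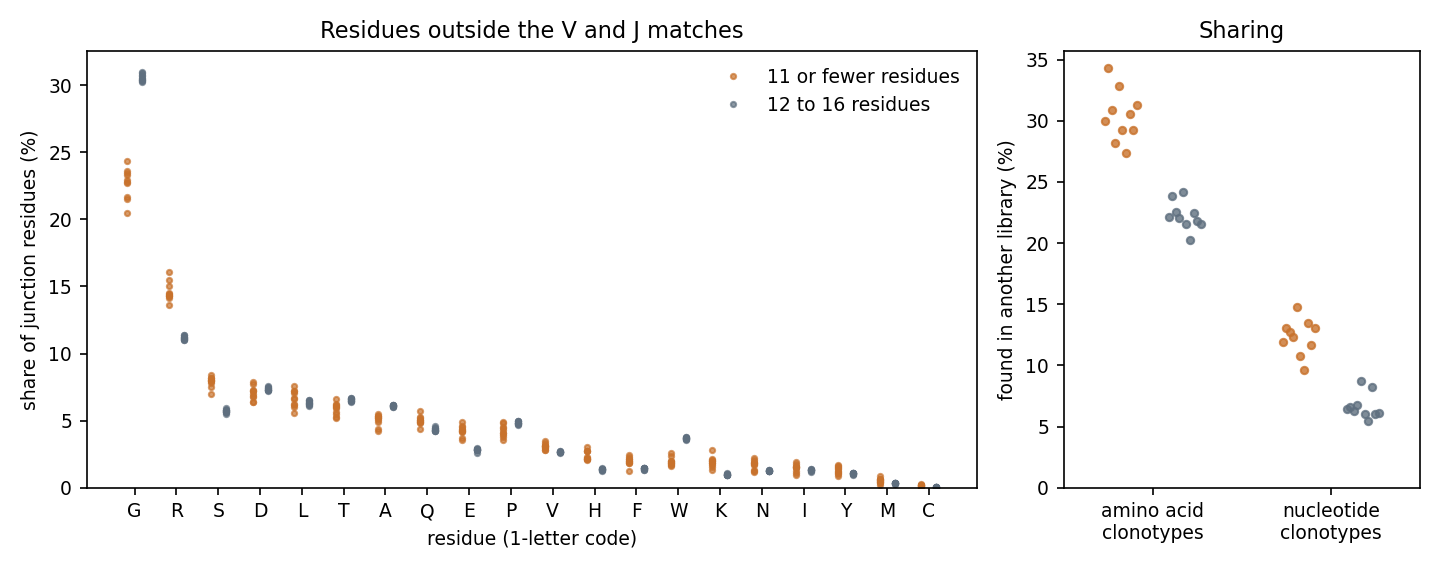
Left, share of each residue (x axis, 1-letter code) among residues outside the V and J matches (y axis, percent), and right, share of amino acid and nucleotide clonotypes of a library that were found in another library (y axis, percent); points are the 10 libraries, CDR3s of 11 or fewer residues left of each pair and of 12 to 16 residues right. Glycine is lower and arginine higher in short CDR3s, and 27.4% to 34.3% of short amino acid clonotypes were shared, against 20.3% to 24.2% of longer ones.

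Over all libraries 1124 of 7713 short amino acid clonotypes, or 14.6%, were in at least 2 libraries, against 16139 of 153022, or 10.5%, in the longer class. Without the most similar pair these were 728 of 6040, or 12.1%, and 10306 of 119129, or 8.65%. In at least 5 of the 10 libraries there were 59 short clonotypes, or 0.765%, and 607 of the longer class, or 0.397%. Without the most similar pair there were 24, or 0.397%, and 222, or 0.186%, in at least 5 of 8 libraries. Of the 59 short clonotypes 50 had 11 residues and 9 had 10. TRBV31 held 22 of these 59, or 37.3%, against 13.5% of all short amino acid clonotypes, and TRBJ2-7 held 28, or 47.5%, against 31.5%. None of the 7713 short ones was in all 10 libraries, where the longer class had 2 of 153022, or 0.00131%. These shares are descriptions, since the clonotypes were picked for being shared.

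Sharing of short clonotypes within a strain did not pass between the strains. At equal TRB counts of 19199, the mean Jaccard index of short amino acid clonotypes, the share of the union found in both libraries, was 0.0274 among CNS4KO pairs and 0.0297 among CNS4Flox pairs (difference -0.00234, exact permutation p = 0.516 over libraries, adjusted p = 0.750). Without the most similar pair it was 0.0264 among CNS4KO and 0.0290 among CNS4Flox pairs (exact permutation p = 0.400). With all libraries it was 0.0278 between the strains. The index of the longer class was 0.0177 among CNS4KO pairs and 0.0180 among CNS4Flox pairs.

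Mean clone size did not pass between the classes. Short clonotypes had 1.38 ± 0.162 deposited counts on average, against 1.39 ± 0.189 in the longer class (SD, n = 10; difference -0.00330, SD of the difference 0.0495; adjusted exact p = 0.899). With a limit of 12 residues, which takes CDR3s of 12 residues out of the longer class, the difference was 0.0588 and passed (adjusted exact p = 0.00263). A count of 1 was found for 77.0% ± 6.64 of short and 79.3% ± 6.20 of longer clonotypes, lower in short ones in 10 of 10 libraries (adjusted exact p = 0.00378). With a limit of 10 residues this difference, -2.80 points, did not pass (adjusted exact p = 0.0634). The 100 clonotypes of highest count held 3, 4, 2, 7 and 2 short ones in the CNS4KO libraries, replicates 1 to 5. In the CNS4Flox libraries, replicates 1 to 5, they held 6, 3, 5, 2 and 5. Short CDR3s made up 5.04% of all clonotypes. The largest short clonotype of a library held 0.0372% to 0.126% of TRB counts in CNS4KO and 0.0277% to 0.0576% in CNS4Flox, and the largest of the longer class 0.189% to 1.87% and 0.0738% to 0.415% in the same order of strains. The longer class had many more clonotypes from which its largest was taken, 179825 against 9737 over all libraries. The short clonotypes with the highest share of a library, the first pair from CNS4KO and the second from CNS4Flox, are shown with bases outside the V and J matches in capitals.
TRBV15 with TRBJ2-5: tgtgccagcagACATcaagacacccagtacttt
TRBV31 with TRBJ2-5: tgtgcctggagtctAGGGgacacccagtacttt
TRBV29 with TRBJ2-7: tgtgctagcagtttatatgaacagtacttc
TRBV14 with TRBJ1-4: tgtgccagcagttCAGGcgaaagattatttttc
The TRBV15 clonotype had 44 counts in CNS4KO replicate 4, or 0.126% of TRB counts, and was in no other library. The TRBV31 clonotype had 27 counts in CNS4KO replicate 3, or 0.107%, and 2 counts in each of 2 CNS4Flox libraries. The TRBV29 clonotype had 19 counts in CNS4Flox replicate 3, or 0.0576%, and 1 in CNS4Flox replicate 1. The TRBV14 clonotype had 11 counts in CNS4Flox replicate 5, or 0.0511%.

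The share of short clonotypes did not pass between the strains. Short CDR3s were 4.83%, 5.27%, 4.73%, 4.99% and 5.23% of distinct TRB clonotypes in the CNS4KO libraries, replicates 1 to 5, and 5.32%, 5.07%, 5.09%, 4.80% and 5.05% in the CNS4Flox libraries, replicates 1 to 5. The ranges of the strains overlapped almost wholly, with a difference of -0.0545 points and an exact permutation p of 0.698 (n = 5 each). By counts the share was 4.95% ± 0.401 in CNS4KO and 5.13% ± 0.241 in CNS4Flox (SD over 5 libraries each; exact permutation p = 0.389). By edgeR's quasi-likelihood test on clonotypes per CDR3 length, 0 of the 3 short lengths with enough clonotypes passed, and 0% of all 10 lengths; the log2 difference of CNS4KO over CNS4Flox was -0.03 (SE 0.04) at 11 residues and 0.15 (SE 0.09) at 10 residues, each with an edgeR adjusted p of 0.970. None of the short lengths had an unadjusted p under 0.05 in edgeR or in DESeq2.

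The make-up of short CDR3s differed most between the strains in the D match. No D match was found in 36.3%, 33.1%, 33.8%, 33.7% and 33.5% of short clonotypes in the CNS4KO libraries, replicates 1 to 5, and in 30.7%, 32.1%, 30.3%, 32.4% and 31.7% in the CNS4Flox libraries, replicates 1 to 5. All 5 CNS4KO libraries lay above all 5 CNS4Flox libraries, with means of 34.1% ± 1.26 and 31.4% ± 0.906 (SD over 5 libraries each) and a difference of 2.62 points. The exact permutation p was 0.00794, the smallest that assignments of 5 against 5 can give, but the adjusted p over 16 values was 0.0635, and 0% of the 16 values passed. In CDR3s of 12 to 16 residues the share was 2.28% ± 0.151 in CNS4KO and 2.23% ± 0.1601 in CNS4Flox (SD over 5 libraries each; exact p = 0.603). The difference between strains was larger in short CDR3s than in longer ones by 2.56 points (exact permutation p = 0.00794, adjusted p = 0.111 over 14 values). Without CNS4KO replicate 5 and CNS4Flox replicate 3 the strains differed by 2.48 points in short CDR3s, with an exact permutation p of 0.0286, the smallest that 4 against 4 libraries can give (adjusted p = 0.152). When clonotypes with a count of 1 were left out, the strains differed by 2.53 points in short CDR3s (exact permutation p = 0.333, adjusted p = 0.833). The difference from the longer class was then 2.59 points (exact permutation p = 0.294, adjusted p = 0.636).

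Related measures lay on the same side. Short CDR3s of CNS4KO libraries had 4.01 ± 0.0879 bases between the V and J matches and those of CNS4Flox libraries 4.21 ± 0.0735 (SD over 5 libraries each; unadjusted exact permutation p = 0.0159). D bases per short clonotype, 0 where no D was named, were 2.39 ± 0.0782 in CNS4KO libraries, against 2.52 ± 0.0608 in CNS4Flox libraries (SD over 5 libraries each, exact permutation p = 0.0317, adjusted p = 0.102). No inserted base was present in 9.97% ± 0.543 and 9.06% ± 0.407, in the same order of strains (SD over 5 libraries each, exact permutation p = 0.0317, adjusted p = 0.102). These were the short clonotypes whose V and J matches touched or overlapped, all of them without a D match. Their share is thus a part of the share without a D match. Where a D was named, its match had 3.62 ± 0.0959 bases in CNS4KO libraries and 3.67 ± 0.0924 in CNS4Flox libraries. V bases were 12.5 ± 0.0726 and 12.4 ± 0.105, J bases 15.9 ± 0.0826 and 15.8 ± 0.0751, and inserted bases 1.73 ± 0.0372 and 1.77 ± 0.0344, in the same order of strains (SD over 5 libraries each; adjusted exact permutation p = 0.270, 0.254 and 0.254). These parts are bound to each other by the fixed length and are not independent measures. The split between D and inserted bases is uncertain here too.

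In subsets of the short clonotypes, chosen after the values were seen, the share without a D match was 38.6% ± 3.15 in CNS4KO and 35.0% ± 1.80 in CNS4Flox with TRBJ1 genes, and 32.2% ± 2.05 and 29.9% ± 1.22 with TRBJ2 genes (SD over 5 libraries each). It was 30.1% ± 1.23 in CNS4KO and 27.5% ± 1.31 in CNS4Flox at 11 residues, and 52.8% ± 2.87 and 51.5% ± 3.97 at 10 or fewer. With TRBV31 it was 25.6% ± 3.23 in CNS4KO and 20.7% ± 2.76 in CNS4Flox, and with all other V genes 35.5% ± 1.19 and 33.4% ± 1.11. The CNS4KO mean was higher in all 6 subsets, with adjusted exact permutation p-values of 0.0714 to 0.556, and the strains' ranges overlapped in each. Each pair of subsets splits the same short clonotypes, so the 6 are not independent of each other or of the whole.

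**Figure D5:**
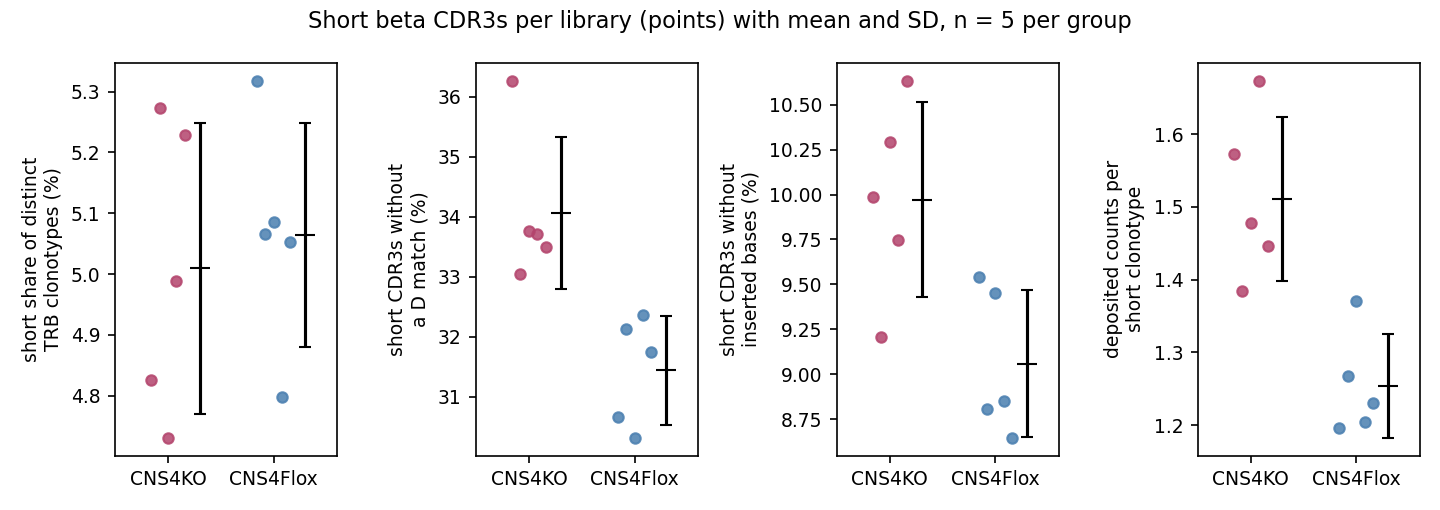
Per-library values of short beta CDR3s in CNS4KO, left in each panel, and CNS4Flox, right: short share of distinct TRB clonotypes, share without a D match and share without inserted bases (percent), and deposited counts per short clonotype; points are libraries, bars the mean and SD of 5, and the y axes do not start at 0. The strains separate fully for the share without a D match (33.1% to 36.3% in CNS4KO, 30.3% to 32.4% in CNS4Flox) and for counts per clonotype (1.39 to 1.67 and 1.196 to 1.37).

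Short clonotypes had more counts in CNS4KO, as longer ones did. Counts per short clonotype were 1.57, 1.39, 1.48, 1.67 and 1.45 in the CNS4KO libraries, replicates 1 to 5 and 1.196, 1.27, 1.37, 1.204 and 1.23 in the CNS4Flox libraries, replicates 1 to 5, without overlap (difference 0.257, exact permutation p = 0.00794, adjusted p = 0.0635). In the longer class the means were 1.53 ± 0.142 in CNS4KO and 1.24 ± 0.0723 in CNS4Flox (SD over 5 libraries each), and the difference between the strains did not differ between the classes past the threshold (-0.0393, exact permutation p = 0.238). A count of 1 was found for 71.9% ± 4.28 of short clonotypes in CNS4KO and 82.1% ± 4.004 in CNS4Flox (SD over 5 libraries each; exact permutation p = 0.0159, adjusted p = 0.0847). At equal TRB counts the share without a D match, counts per clonotype and the share with a count of 1 had differences of 2.68 points, 0.182 and -8.23 points, and each passed with an adjusted exact permutation p of 0.0423. They did not pass at the deposited depth. There the exact permutation p of the share without a D match and of counts per clonotype was also 0.00794, the smallest possible. Their adjusted p fell at equal counts because the share with a count of 1 reached that smallest p as well. Without the most similar pair of libraries the difference in counts per short clonotype was 0.303 (exact permutation p = 0.0286, adjusted p = 0.152).

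TRBV12-1 was the V gene that passed between the strains among short clonotypes. It had 50, 53, 64, 77 and 93 short clonotypes in the CNS4KO libraries, replicates 1 to 5, and 54, 70, 66, 34 and 36 in the CNS4Flox libraries, replicates 1 to 5. As a share of distinct TRB clonotypes this was 0.371% ± 0.0356 in CNS4KO and 0.249% ± 0.0455 in CNS4Flox (SD over 5 libraries each), and all CNS4KO libraries (0.312% to 0.403%) lay above all CNS4Flox libraries (0.196% to 0.289%). The log2 difference was 0.56 (SE 0.14), with an adjusted p of 0.0334 by edgeR's quasi-likelihood test over 58 combinations of V gene and length class, of which 3.45% passed. Among the 21 short V genes tested, 1 passed and 2 had an unadjusted p under 0.05 in edgeR. TRBV12-1 also passed in the longer class, with a log2 difference of 0.39 (SE 0.08) and an edgeR adjusted p of 0.0110, and its short over longer ratio did not differ between the strains past the threshold (difference 0.20 on the log2 scale, exact permutation p = 0.246). The call was lost without CNS4KO replicate 2, 3, 4 or 5 and without CNS4Flox replicate 3, 4 or 5 (edgeR adjusted p = 0.0547 to 0.130, with log2 differences of 0.50 to 0.60), without CNS4KO replicate 5 and CNS4Flox replicate 3 together (edgeR adjusted p = 0.178), and when counts were summed (edgeR adjusted p = 0.474). TRBV12-1 lies at 41113567 to 41114067 on chromosome 6; its near-identical neighbour TRBV12-2, at 41118864 to 41119364, had a short log2 difference of 0.27 (SE 0.19; edgeR adjusted p = 0.564), and the naming could split sequences between them.

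No J gene and no single short clonotype passed between the strains. In edgeR 0 of 12 short J gene features passed, with 0 at an unadjusted p under 0.05 in edgeR and in DESeq2, and 0% of 33 combinations of J gene and length class passed; the log2 differences ran from -0.11 (TRBJ2-2) to 0.32 (TRBJ1-6), both with an edgeR adjusted p of 0.927. The TRBJ2 share of short clonotypes was 68.8% ± 2.68 in CNS4KO and 68.8% ± 2.71 in CNS4Flox (SD over 5 libraries each; exact permutation p = 0.992). Of 59 short amino acid clonotypes in at least 5 libraries 0 passed in edgeR and 0 in DESeq2, with 3 at an unadjusted p under 0.05 in edgeR and 1 in DESeq2, and 0% of all 666 tested passed. The smallest edgeR adjusted p was 0.2999, for a clonotype of TRBV12-1 with TRBJ2-7 other than the one printed above, with a log2 difference of 3.76 (SE 1.35). Glycine held 22.6% ± 1.53 of junction residues of short CDR3s in CNS4KO and 22.8% ± 0.772 in CNS4Flox, and hydrophobic residues 16.8% ± 0.956 and 17.2% ± 0.664 (SD over 5 libraries each; exact permutation p = 0.810 and 0.444).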

How the data were processed

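Each library had 1 deposited table of clonotypes with a count, its fraction of the library (freq), the CDR3, V, D and J names and match ends. Per the labels' protocols, cDNA of both chains was made from total RNA with a template switch and amplified in 2 steps. The deposited count is used as given; whether it counts reads or molecules, and the aligner, are not given in the sources used here. The genome build is mm10, per the submitters' processing notes. The deposited fraction was not tested. PCR counts are not independent molecules.

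TRB entries, short CDR3s and the J gene were taken from the CDR3 end, since TRBJ1-6 was never named in the deposited tables. V, D, J and inserted bases were read from the match ends of entries whose J name matched the CDR3 end (98.4% of short and 96.4% of 12 to 16 residues). The D match was taken to run from its deposited start to its deposited end, both included. The bases left between the V and J matches were counted as inserted. Trimming is relative to the longest match held by at least 1% of a gene's entries. Of the 22 V and 12 J genes all matched RefSeq's GRCm38.p6 table.

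Per-library values were compared by two-sided exact permutation of 5 against 5 and, between length classes, exact sign flips over 10 libraries, with Benjamini-Hochberg adjustment over 16 and 62 values. Clonotype numbers per V gene, J gene or length, and counts per clonotype, were tested with edgeR 4.0.16's quasi-likelihood test (features with at least 10 clonotypes in each of at least 5 libraries; amino acid clonotypes present in at least 5 libraries), with DESeq2 1.42.0 as an alternative, in R 4.3.3 and Python 3.11.15. Scripts were tested on simulated data. Named V genes were the 3 with the highest short share, those past the threshold in edgeR, and up to 5 most over- and under-represented in all 10 libraries; all J genes were named. The members and lists were chosen with earlier results of these data known. Alternatives were weighting by count, leaving out counts of 1, limits of 10 and 12 residues, unique amino acid sequences, matching J names only, thinning to 19199 TRB counts in 20 draws, and leaving out each library. With a limit of 10 or 12 residues the longer class held all CDR3s above that limit and up to 16 residues. Leaving out the most similar pair together in the edgeR tables and the sharing totals was added after seeing the data.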

Additional observations from a re-analysis of the deposited data

Results flagged for a closer look

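Among the 74 sets of 5 libraries checked for an outlying library, 1 was found, where chance gives about 1 in 20. It was the share of short clonotypes without a D match in CNS4KO replicate 1, at 36.3%, with 33.1% to 33.8% in the other CNS4KO libraries. That library was the highest of CNS4KO, so leaving it out could not make the strains overlap. Without it the strains differed by 2.07 points (exact permutation p = 0.00794, adjusted p = 0.127).

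For 4 linked measures the CNS4KO minus CNS4Flox difference was not the same in short CDR3s as in those of 12 to 16 residues at an unadjusted exact permutation p under 0.05 (n = 5 each). The difference of differences was 2.56 points for the share without a D match (p = 0.00794), 0.883 points for the share without inserted bases (p = 0.0317), -0.124 for D bases (p = 0.0317) and 0.0877 for J bases (exact permutation p = 0.0476). The adjusted exact p-values over 14 values were 0.111, 0.148, 0.148 and 0.167, so none passed. Weighted by count, D bases (-0.135) and J bases (0.127) did pass, each with an adjusted exact permutation p of 0.0437. D bases carry the uncertain split between D and inserted bases.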

How the results depend on the processing

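Of 604 comparisons of 37 results with an alternative, 528 kept their direction and side of the threshold, 46 turned direction, 20 lost and 10 gained a pass. The cause was not tested. For numbers of short features past the edgeR threshold, a similar number, mostly 0, counted as kept. Most losses were of TRBV12-1, which passed in 6 of 15 alternatives. Each such loss counted under its fold and under the number of short V genes past the threshold. All values here are CNS4KO minus CNS4Flox in short CDR3s unless named. Weighting by count turned mean length (-0.00488), the TRBJ2 share (0.862) and the hydrophobic share (0.0719), and made the differences from the longer class in D bases (-0.135) and J bases (0.127) pass. Without counts of 1, inserted bases (0.0171), the TRBJ2 share (2.51), overlap (0.0019) and the hydrophobic pair (-0.358) turned. With 10 or fewer residues, the clonotype share (0.0395), count share (0.0568), share without inserted bases (-0.333, and -0.399 against the longer class), TRBJ2 share (3.60), overlap (0.00587), glycine (1.97), hydrophobic pair (-1.19) and short minus longer counts per clonotype (0.0486) turned, and the short minus longer count of 1 (-2.80) and hydrophobic pair (0.848) lost their pass. With 12 or fewer, the count share (0.402), mean length (-4.57e-06) and short minus longer counts per clonotype (0.0588, which passed) turned. The TRBJ2 share also turned with matching J names (0.227), thinning (0.0515) and without the most similar pair (0.604), which turned the hydrophobic pair too (-0.166). Mean length turned with unique amino acid sequences (-0.0012) and thinning (-0.000687). With unique sequences counts per clonotype (0.2998) and the share with a count of 1 (-9.23) passed, and thinning made the share without D (2.68), counts per clonotype (0.182) and the share with a count of 1 (-8.23) pass. Summed counts and leaving out the pair each left 0 short V genes past the edgeR threshold. Leaving out each library gave -1.07 to 0.667 for the TRBJ2 share, 0.217 to 0.289 for counts per clonotype, -0.651 to 0.314 for glycine, -0.0026 to 0.00345 for mean length, -0.168 to 0.179 for the hydrophobic pair, 2.07 to 2.87 for the share without D, 0.748 to 1.10 without inserted bases, -0.121 to 0.0152 for the clonotype share, -0.00914 to 0.0101 for short minus longer counts per clonotype, 0 to 1 short V genes past the edgeR threshold, and 0.50 to 0.62 for TRBV12-1 on the log2 scale. Without CNS4KO replicate 2 the share without D, the share without inserted bases and counts per clonotype passed (adjusted exact p = 0.0423 each). The unadjusted exact permutation p of the share without D and of counts per clonotype was 0.00794 both with and without that library. No paired analysis was possible because the labels give no replicate numbers, and those used here follow accession order and pair nothing. With 5 libraries a strain the smallest exact p is 0.00794, and 727 to 1244 short clonotypes a library limit rare genes.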
